A study of Mus musculus with 15 samples.

Results

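The Trim5, Trim12, Trim30 and Trim34 genes form 1 cluster of tandem copies on mouse chromosome 7, and accessible chromatin over them was examined in haematopoietic stem cells (HSC). The 8 members were Trim34a, Trim5, Trim12a, Trim34b, Trim12c, Trim30b, Trim30a and Trim30d, out of 21883 protein-coding genes in the RefSeq table used, and every ATAC-seq peak in a window of 700 kb around them was taken with them. The peaks of the window ran from position 103909904 to 104508225 of chromosome 7 (mm10). The window held 16 of 32768 merged regions. The cluster was chosen because peaks at Trim12a and Trim5 in both mutant lists, high-scoring except for Trim5 in KO, had no partner in the WT list. The presence or absence of peaks at these genes is therefore a description and was not tested.

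The 3 ATAC-seq libraries, 1 per genotype, came from HSC sorted from adult mice given poly(I:C), a double-stranded RNA mimic that induces interferon. The KO mice were Mx1-Cre+/-;mTORflox/flox, the KI mice Mx1-Cre+/-;mTORflox/knockin and the WT control mice Mx1-Cre-/-;mTORflox/flox. The Mx1 promoter that drives Cre is itself switched on by interferon, in many cell types besides HSC, and the KI cells keep the knock-in allele after the floxed allele is recombined. WT carried the floxed alleles without Cre, so effects of Cre and of the Mtor alleles cannot be told apart in comparisons with WT. Per the labels KO and WT are re-analysed libraries whereas KI is not, so a difference of batch cannot be told apart from the KI genotype. The labels give neither the number of mice behind a library, nor their strain, nor the nature of the knock-in allele. The other 12 samples, RNA-seq libraries with 4 per genotype, were not analysed here.

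TRIM proteins are ubiquitin ligases built from a RING finger, B-box and coiled-coil, and many of them act in antiviral defence. In primates TRIM5 binds incoming retroviral capsids and blocks infection, and the mouse Trim5, Trim12a and Trim12c genes are its tandem relatives. Several genes of the mouse cluster, Trim30a and Trim34a among them, are induced by interferon, and mouse Trim30a restrains Toll-like receptor signalling to NF-kB. Recent tandem copies of this kind keep near-identical stretches of sequence, where a short sequencing read may match more than 1 place.

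The promoters show how alike the copies are. All 8 members were matched in the RefSeq promoter table (GRCm38.p6, the assembly behind mm10), with 9 annotated starts because Trim30a has 2. Each promoter window runs from 250 bases before to 50 bases after the annotated start. The following stretches lie upstream of the annotated starts of all 3 genes shown. They are from the minus strand, 5′ to 3′, at chr7:104288166-104288356 for Trim5, chr7:104315496-104315686 for Trim12a and chr7:104353389-104353580 for Trim12c, and capitals mark bases that are not the same in all 3. They are shown because WT lacked the peaks that both mutants had at Trim5 and Trim12a, whereas Trim12c had a peak in every list.
Trim5: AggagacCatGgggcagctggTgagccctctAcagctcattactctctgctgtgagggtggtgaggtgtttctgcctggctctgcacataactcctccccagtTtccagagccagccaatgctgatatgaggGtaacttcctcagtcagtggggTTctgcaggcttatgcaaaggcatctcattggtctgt
Trim12a: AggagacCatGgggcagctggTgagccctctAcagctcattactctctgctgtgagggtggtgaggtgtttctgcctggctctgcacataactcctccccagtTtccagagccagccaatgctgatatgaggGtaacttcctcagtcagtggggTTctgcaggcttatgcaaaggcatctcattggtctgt
Trim12c: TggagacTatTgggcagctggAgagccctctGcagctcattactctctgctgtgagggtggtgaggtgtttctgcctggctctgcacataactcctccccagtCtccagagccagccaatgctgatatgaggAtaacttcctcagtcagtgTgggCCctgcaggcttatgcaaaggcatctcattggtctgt

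The Trim5 and Trim12a windows shared a run of 241 bases without a mismatch, which reached the edge of both windows and may go on beyond them. Of the 192 aligned columns shown, 182 were the same in all 3 genes. Over their local alignments the Trim12c window was 94.2% identical to Trim5 (278 aligned bases) and 94.6% identical to Trim12a (261 bases), with a longest identical run of 71 bases in each case. A read lying inside the 241-base run matches Trim5 and Trim12a alike.

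The Trim30 promoters were less alike. Their aligned stretches, again minus strand and 5′ to 3′ with differing bases in capitals, lie at chr7:104400918-104401028 for Trim30c, a gene of the cluster that is not among the members, chr7:104446126-104446235 for the inner Trim30a start, chr7:104465232-104465342 for the upstream Trim30a start and chr7:104507893-104508003 for Trim30d. They are shown because Trim30a had peaks in every list, Trim30d in KO and KI alone, and Trim30c in WT alone. The WT peak beside Trim30c, chr7:104401032-104401414, lies just upstream of the stretch shown and does not cover it.
Trim30c: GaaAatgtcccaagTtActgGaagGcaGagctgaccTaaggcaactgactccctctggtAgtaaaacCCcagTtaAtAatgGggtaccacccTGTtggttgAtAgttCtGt
Trim30a inner start: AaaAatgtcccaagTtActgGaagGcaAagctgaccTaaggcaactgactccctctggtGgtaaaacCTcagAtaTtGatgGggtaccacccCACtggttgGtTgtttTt
Trim30a upstream start: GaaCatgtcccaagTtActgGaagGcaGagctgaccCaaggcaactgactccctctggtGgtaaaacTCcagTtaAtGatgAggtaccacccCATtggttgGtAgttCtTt
Trim30d: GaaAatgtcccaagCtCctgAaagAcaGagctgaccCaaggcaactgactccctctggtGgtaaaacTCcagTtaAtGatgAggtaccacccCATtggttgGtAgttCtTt

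Of these 111 aligned columns, 89 were the same in all 4. The Trim30d and upstream Trim30a windows were the closest pair, with 276 of 294 aligned bases identical (93.9%) and a longest identical run of 118 bases. The Trim30c window was 89.2% identical to the upstream Trim30a window over 176 bases, with a longest run of 32. Trim34a and Trim34b, despite their names, shared no run over 11 bases in these windows.

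**Figure D1:**
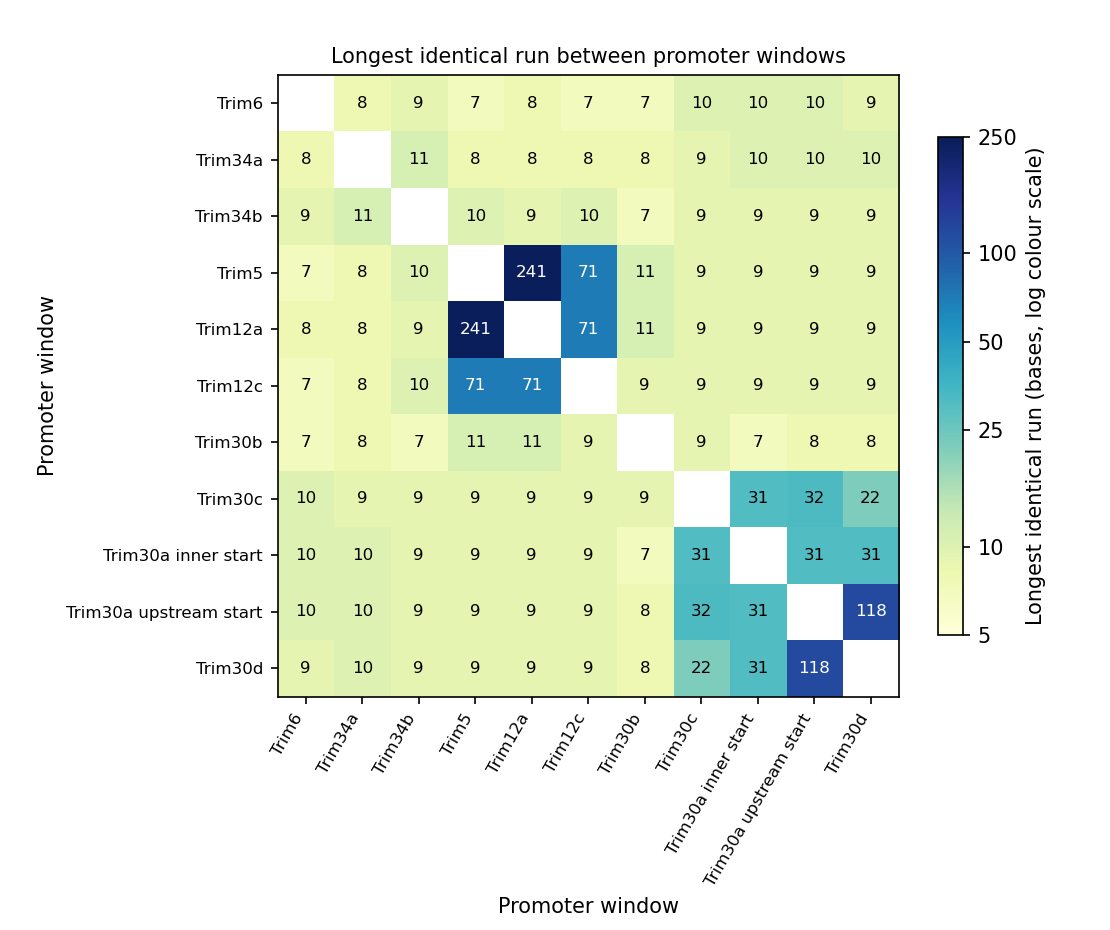
Longest run of identical bases (number in each cell, log colour scale) between the 300-base promoter windows of the 8 members, Trim6 and Trim30c, on the gene strand. Trim5 and Trim12a share 241 bases, the upstream Trim30a start and Trim30d 118, and Trim12c 71 with each of Trim5 and Trim12a.

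As a measure of repeated sequence, the share of 36-base runs of each window that also occur in another promoter of the table, on either strand, was 77.7% for Trim5 and for Trim12a, 38.9% for Trim30d and for the upstream Trim30a start, and 24.2% for Trim12c. It was 5.28% for Trim30c, 3.40% for the inner Trim30a start, 0.377% for Trim30b and 0 for Trim34a, Trim34b and Trim6. The highest share, 77.7%, belonged to Trim5 and Trim12a, whose starts lacked the WT peak. The other starts with mutant peaks and no WT peak were Trim30d, at 38.9%, and Trim6, at 0. Starts with a WT peak had 38.9% (upstream Trim30a), 24.2% (Trim12c), 3.40% (inner Trim30a) and 0 (Trim34a). These shares cover 300-base windows and not whole peaks, and their bearing on the missing WT peaks was not tested. Across all 32851 promoter windows 10.3% held a shared run. Among starts with a peak in KO and KI alone 33 of 775 did (4.26%, exact 95% interval 2.95 to 5.93). Among starts with a peak in all 3 lists 259 of 8303 did (3.12%, 2.76 to 3.52). Whether these shares differ was not tested, and the KO and KI class includes the Trim5, Trim12a and Trim30d starts. Starts with no peak in any list held a shared run more often, in 3002 of 20951 (14.3%, 13.9 to 14.8). The table holds promoters only, so repeats elsewhere were not examined, and neither read length nor the handling of reads with several matches is given in the labels.

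The windows were also searched on both strands for the core of the interferon-stimulated response element, GAAANNGAAA. This motif was chosen with the accessible starts known. It was present in all 7 member windows whose start lay under a peak in any list, and in neither Trim34b nor Trim30b, which had none. It was absent from the Trim6 window, whose start lay under KO and KI peaks that WT lacked, and from the Trim30c window. It was in 3.44% of all promoter windows, in 30 of 775 starts with a peak in KO and KI alone (3.87%, 2.63 to 5.48) in 206 of 8303 starts with a peak in all 3 lists (2.48%, 2.16 to 2.84) and in 808 of 20951 starts with no peak (3.86%, 3.60 to 4.13). The share in the KO and KI class was like that of starts with no peak and above that of starts in all 3 lists. The bearing of the motif on the peaks was not tested. The Trim5 and Trim12 windows are close copies of each other, as are the Trim30a and Trim30d windows, so the matches within each of these groups are not independent. The following 30-base stretches are on the gene strand, 5′ to 3′, with the match in capitals in its reverse orientation.
Trim34a: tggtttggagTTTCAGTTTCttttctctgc
Trim5: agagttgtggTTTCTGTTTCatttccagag
Trim12a: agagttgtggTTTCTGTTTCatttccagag
Trim12c: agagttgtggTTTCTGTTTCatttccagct
Trim30a inner start: ttgtttttagTTTCTTTTTCtcagttcctg
Trim30a upstream start: agttctttagTTTCTTTTTCtcagttcctg
Trim30d: agttctttagTTTCTTTTTCtcagttcctg

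The 7 matches had 3 different spellings, 1 for Trim34a, 1 for the Trim5 and Trim12 genes and 1 for the Trim30 genes. Their first base lay 49 bases before the annotated start in Trim5, 29 before it in Trim12c, 41 before it in Trim30d and 36 before the upstream start of Trim30a. It lay 10 bases after the start in Trim34a and Trim12a and 2 after the inner start of Trim30a. Of the other motifs searched on both strands, the gamma-activated site TTCNNNGAA was in the Trim30c window alone among these 11 windows (8.30% of all windows), the AP-1 site TGANTCA was in Trim34b, the upstream Trim30a start and Trim30d (7.81% of all), and the ETS site CCGGAAG was in none (8.86% of all). A match is a description of the letters and not evidence of binding.

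Peaks are described by their width, by the score that the authors deposited and by the percentile of that score within its own list, where 100 is the highest. Scores are not comparable between lists. The KO list held 19189 peaks, the KI list 28391 and the WT list 17316, with median widths of 514, 477 and 590 bp in that order and a lowest score of 50 in KO and KI and 50.01 in WT. Read depth is unknown, and with 1 library per genotype no difference below carries a replicate error or a p-value. As a check of the labels, a peak covered the annotated start of Mtor in KI (percentile 82.1) and WT (percentile 96.7), and the nearest KO peak lay 3676 bp away. Of 15 HSC marker genes, 5 in KO, 8 in KI and 9 in WT had a peak within 1 kb of an annotated end, and Slamf1, Gata2, Lmo2, Erg, Fli1 and Tek had none in any list. The same count for 5 T cell genes was 1 in each list. In KO, KI and WT it was 0, 1 and 0 for 5 B cell genes and 1, 3 and 0 for 5 erythroid genes. For 6 neutrophil and monocyte genes it was 0, 4 and 0 in the same order. Over all protein-coding genes the shares were 44.1% in KO, 51.4% in KI and 44.2% in WT. No cell identity is read from these counts.

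The window held 13 KO, 14 KI and 10 WT peaks. Of these, 8 of 13 in KO, 9 of 14 in KI and 7 of 10 in WT were in the top 25% of their list by score. Their median percentile was 76.9 in KO, 86.7 in KI and 83.1 in WT, and their median width 727, 749.5 and 903 bp. Merged where they overlapped by at least 1 bp, the 37 peaks made 16 regions, of which 8 had a peak in all 3 lists, 4 in KO and KI alone, 2 in KI alone, 1 in KO and WT, and 1 in WT alone. Of all merged regions of the series, 10.7% were of the KO and KI class and 37.5% had all 3. Regions in KI alone made up 29.3%, those in KO and WT 1.31% and those in WT alone 5.52%. All 4 regions seen in KO and KI alone lay over annotated starts, as did 5 of the 8 seen in all 3 lists. Over the whole lists, 7382 of 19189 KO peaks and 8667 of 28391 KI peaks covered a start. The share within each class of regions was not counted, so nothing is read from this.

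**Figure D2:**
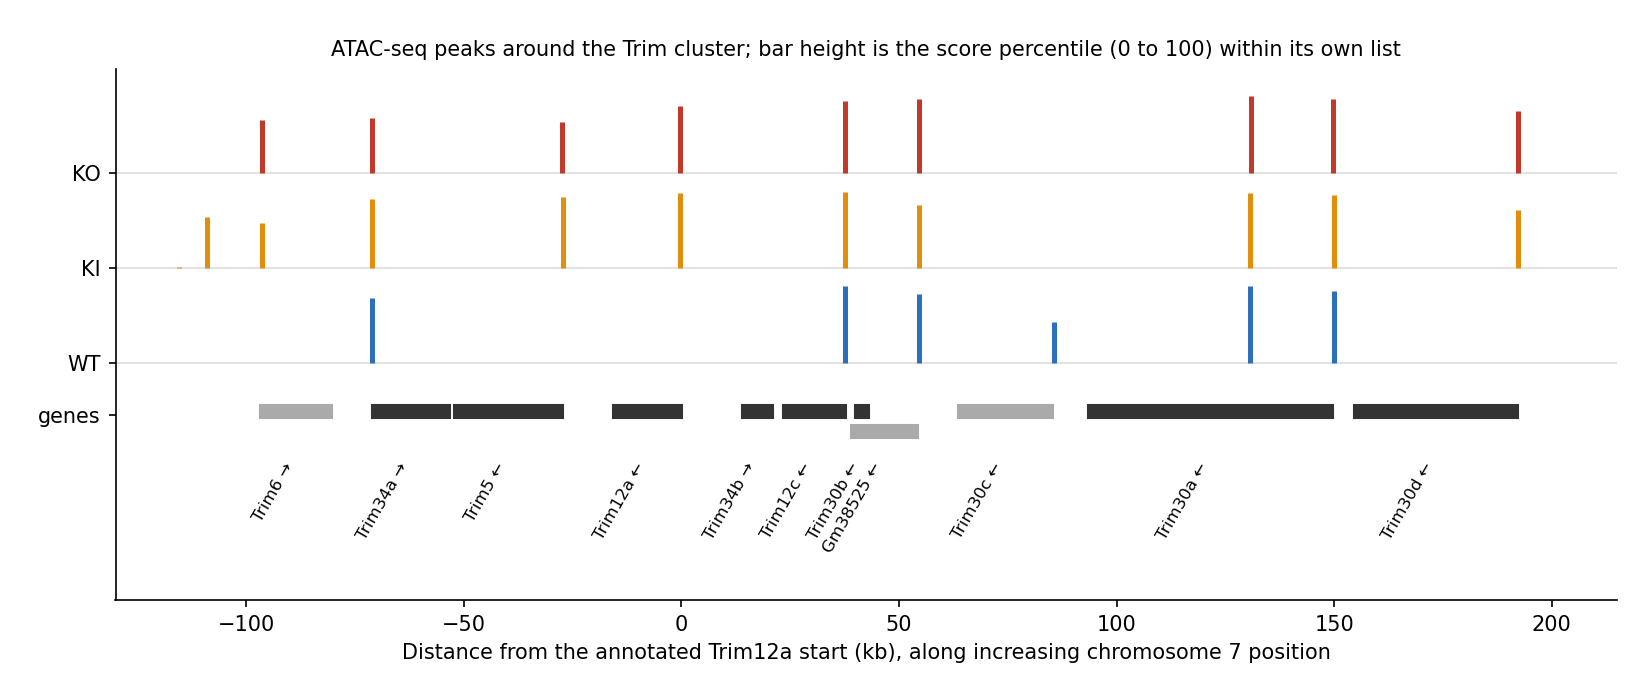
ATAC-seq peaks of the KO, KI and WT lists along the cluster, by distance in kb from the annotated Trim12a start. Each bar is 1 peak and its height the percentile of its score within its own list, dark boxes are members, grey boxes other genes, and arrows give the direction of transcription. The starts of Trim6, Trim5, Trim12a and Trim30d carry KO and KI bars and no WT bar, and WT alone has a bar beside Trim30c.

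Among the Trim5 and Trim12 genes, Trim12c, whose product promotes interferon and NF-kB signalling in mouse cells, had a peak over its start in every list. In KO the peak was 1452 bp wide (score 216.41, percentile 90.2), in KI 1140 bp (367.8, percentile 95.01) and in WT 1125 bp (316.75, percentile 95.8). All 3 were thus above percentile 90.

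Trim5, named for its likeness to the primate restriction factor, had a peak over its start in both mutants, which WT lacked. The KO peak, chr7:104287878-104288501, was 624 bp wide with a score of 108.67 (percentile 63.5, rank 7008 of 19189). The KI peak, chr7:104287963-104288509, was 547 bp wide with a score of 261.58 (percentile 88.1, rank 3383 of 28391). The nearest WT peak lay 43293 bp away, at Trim34a, and no WT peak overlapped the gene. The KO peak was thus of middling rank and the KI peak in the upper part of its list.

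Trim12a had the highest-ranking peaks of those that WT lacked in the window. The KO peak, chr7:104314688-104315881, was 1194 bp wide with a score of 175.48 (percentile 84.0, rank 3063). The KI peak, chr7:104314499-104316082, was 1584 bp wide with a score of 320.93 (percentile 92.7, rank 2068). These widths stood at percentile 94.8 of the KO and 98.1 of the KI list. The nearest WT peak lay 37165 bp from the start, over Trim12c. The peaks also covered the start of Gm15133, a long non-coding RNA gene that runs the other way, so they cannot be assigned to Trim12a alone.

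The Trim30 genes differed among themselves in the same manner. Trim30a had peaks over both its annotated starts in all 3 lists. At the inner start the KO peak was 873 bp wide (score 284.55, percentile 95.8), the KI peak 1041 bp (332.22, percentile 93.3) and the WT peak 1024 bp (317.88, percentile 95.8). At the upstream start the KO peak was 610 bp wide (232.83, percentile 91.9), the KI peak 1384 bp (293.94, percentile 90.8) and the WT peak 1146 bp (232.18, percentile 88.9). The percentiles of the 3 lists differed by less than 4 points at each start.

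Trim30d, known in mouse as TRIM79 and as a restriction factor for tick-borne flaviviruses, had a start peak in both mutants that WT lacked. The KO peak, chr7:104507441-104508145, was 705 bp wide with a score of 144.87 (percentile 76.9), and the KI peak, chr7:104507380-104508225, was 846 bp wide with a score of 157.04 (percentile 72.7). The KO peak was within the top 25% of its list and the KI peak just outside it. The nearest WT peak lay 41827 bp away, at the upstream start of Trim30a.

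Trim30b, a shorter paralogue of 3249 bp, had no peak over it in any list, and the nearest peaks lay 4753 bp from its start in KO and 4862 bp in KI and WT, over Trim12c. Trim30c, which is not among the members, showed the opposite of Trim30d. A WT peak of 383 bp (chr7:104401032-104401414, score 95.35, percentile 50.4) lay 254 bp upstream of its annotated start, and the nearest KO and KI peaks were 30250 and 30202 bp away. When the WT list was cut into 10 equal classes by score, 40 of the 1732 peaks in the class of this peak (2.31%) were likewise absent from both mutants.

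For the Trim34 genes, Trim34a, whose human counterpart is induced by interferon and binds retroviral capsids, had a peak over its start in every list. It was 564 bp wide in KO (119.31, percentile 68.5), 679 bp in KI (236.12, percentile 85.3) and 701 bp in WT (181.21, percentile 80.9). The KO peak ranked lowest. Trim34b had no peak over it in any list, and its start lay 13590 bp from the nearest KO peak, 13389 bp from the nearest KI peak and 23189 bp from the nearest WT peak.

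**Figure D3:**
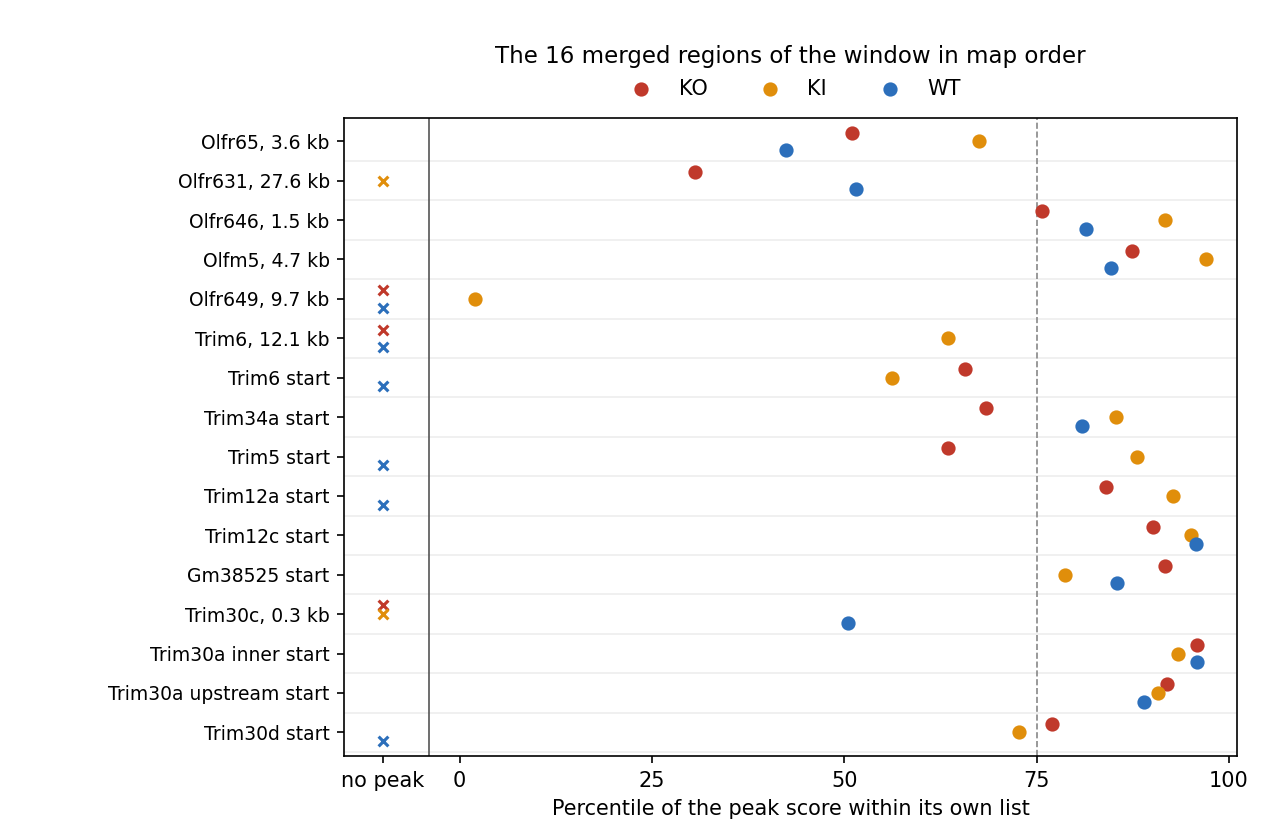
Percentile of the peak score within its own list for the 16 merged regions in map order, named by the nearest annotated start, with the distance in kb where the region does not cover that start. Points are KO, KI and WT peaks, crosses on the left mark no peak, and the dashed line marks the top 25%. WT is missing at the Trim6, Trim5, Trim12a and Trim30d starts, and KO and KI beside Trim30c.

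Counted by gene, 6 of the 8 members had a peak within 1 kb of an annotated end in KO, 6 in KI and 3 in WT. Over all protein-coding genes the shares were 44.1% in KO, 51.4% in KI and 44.2% in WT. The 3 members that differed were Trim5, Trim12a and Trim30d, of which Trim5 and Trim12a share near-identical promoters and may not count independently. Trim34a, Trim12c and Trim30a had such peaks in all 3 lists, as did 39.2% of all protein-coding genes. A gene-end peak in KO and none in WT was found for 4.58% of all protein-coding genes, one in KI and none in WT for 8.66%, and one in both mutants and none in WT for 3.53%. The reverse, a WT peak missing in a mutant, occurred at no member, against 4.65% of all genes for KO and 1.45% for KI. Peaks within 1 kb of an annotated start gave the same member counts. Of all genes with an annotated start, 46.6% had one in KO, 53.8% in KI and 46.7% in WT. Over the 17491 genes with such a start, the shares were 4.45% for KO without WT, 8.34% for KI without WT, 3.50% for both mutants without WT, 41.9% for all 3 lists, 4.57% for WT without KO and 1.27% for WT without KI. Since the members were chosen for this contrast, nothing is read from these counts. The comparisons of KO and KI with WT share the single WT library, so a peak missed in that library counts in both.

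Of the 13 KO peaks in the window, 4 had no overlapping WT peak (30.8%, exact 95% interval 9.09 to 61.4, covering counting error over peaks only), against 32.4% of the whole KO list. Of the 14 KI peaks, 6 had no WT partner (42.9%, 17.7 to 71.1), against 46.5% of the KI list. By number, both shares were close to those of their lists, but the window's peaks ranked higher than their lists. In the top 25% were 8 of the 13 KO and 9 of the 14 KI peaks. Of all top 25% peaks, 1.0% in KO and 2.0% in KI lacked a WT partner. In the other direction 1 of the 10 WT peaks had no KO partner (10%, 0.253 to 44.5, against 25.5% of the WT list) and 2 had no KI partner (20%, 2.52 to 55.6, against 13.1%). Between the mutants, 1 of the 13 KO peaks lacked a KI partner (7.69%, 0.195 to 36.03, against 16.0% of the KO list). Of the 14 KI peaks, 2 lacked a KO partner (14.3%, 1.78 to 42.8), against 43.2% of the KI list and 1.73% of its top 25% peaks. The cluster was chosen for peaks present in both mutants, so nothing is read from this low share.

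The cluster was selected on the scores of these peaks, which are given here as a description. Of the top 25% of peaks, 2 of 8 in the window had no WT partner in KO and 2 of 9 in KI, against 1.0% (48 of 4797) of such KO peaks and 2.0% (142 of 7097) of such KI peaks. In KO these were the Trim12a and Trim30d peaks and in KI the Trim12a and Trim5 peaks. Because Trim5 and Trim12a share a run of 241 identical promoter bases, their 2 peaks may not be independent. With each list cut in the same way into 10 classes by score, and among KO peaks of the same class, 14.1% lacked a WT partner for Trim5 and Trim6, 4.43% for Trim30d and 0.677% for Trim12a. Among KI peaks the share was 1.94% for Trim5, 0.176% (5 of 2839) for Trim12a, 9.09% for Trim30d and 47.3% for Trim6. All of these peaks lie over annotated starts, and among peaks over starts in the same class the shares were lower. For KO they were 5.76% for Trim5 and Trim6, 2.03% for Trim30d and 0.375% (5 of 1333) for Trim12a. For KI they were 1.06% for Trim5, 0.0453% (1 of 2209, the Trim12a peak itself) for Trim12a, 6.01% for Trim30d and 34.2% for Trim6. The shares for Trim12a and Trim5 restate the choice of the cluster, and nothing is read from them. The Trim6 peak in KI was of a rank at which peaks often lacked a WT partner. No top 25% peak of the window lacked a partner in any other pairing, against 0.0417% of KO peaks without a KI partner, 1.73% of KI peaks without a KO partner, and 0.393% and 0.139% of WT peaks without a KO or a KI partner.

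**Figure D4:**
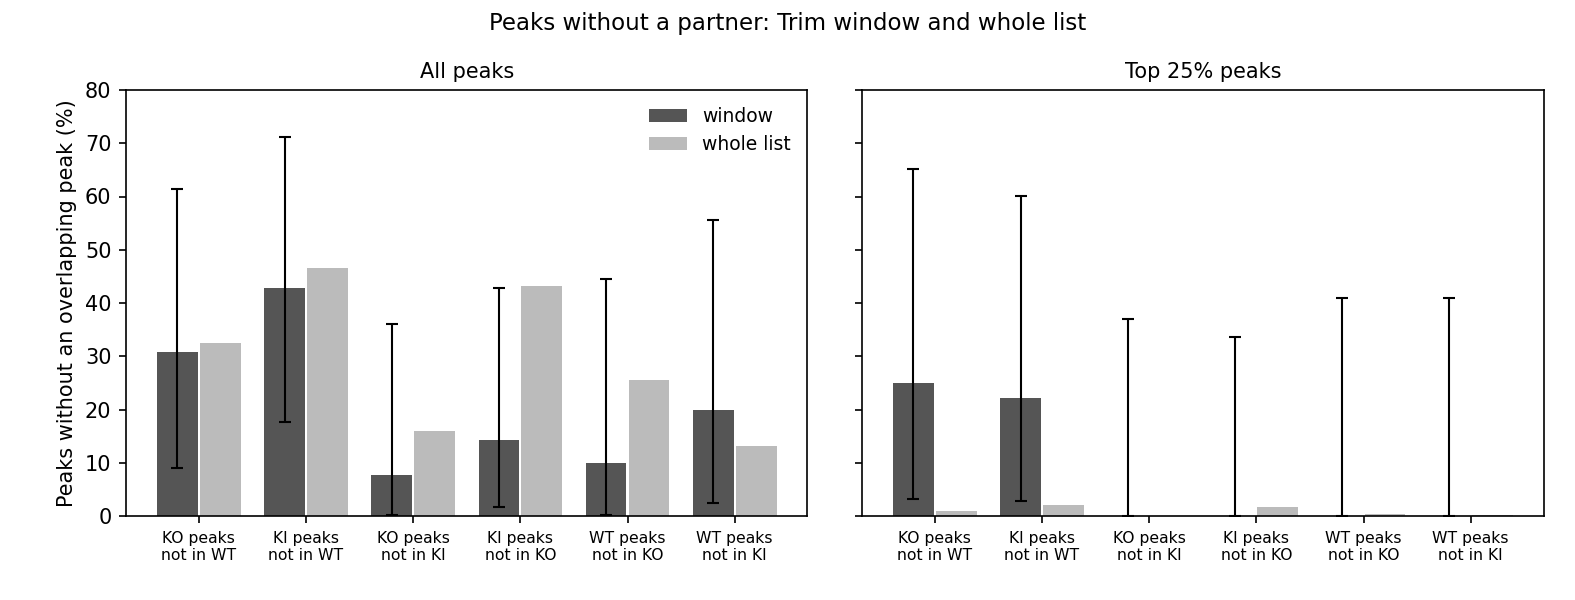
Share of peaks (in percent) without an overlapping peak in another list, for the window (dark bars, with exact 95% intervals over peaks) and the whole list (light bars), for all peaks on the left and the top 25% by score on the right. The intervals cover counting over peaks only and are not a test, and the window was chosen for peaks present in both mutants. Among top peaks the KO and KI peaks without a WT partner stand at 25% and 22.2%.

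The other peaks of the window lay over or between neighbouring genes. Trim6, a TRIM gene next to Trim34a, had a peak over its start in KO (1091 bp, score 113.33, percentile 65.7) and KI (820 bp, 105.51, percentile 56.2), but not in WT, where the nearest peak was 25318 bp away. The start of Gm38525, a predicted protein-coding gene that overlaps Trim30b, had a peak in KO (899 bp, 230.58, percentile 91.7), KI (855 bp, 187.07, percentile 78.6) and WT (1022 bp, 207.64, percentile 85.5). Further to the left, 6 regions lay among olfactory receptor genes and none of them covered an annotated start.

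Of those 6, 3 had peaks in every list. Near Olfr65 the peak was 615 bp wide in KO (88.7, percentile 51.0), 664 bp in KI (136.26, percentile 67.5) and 528 bp in WT (83.65, percentile 42.4). Within Olfr646 it was 740 bp in KO (140.69, percentile 75.6), 556 bp in KI (306.19, percentile 91.7) and 944 bp in WT (183.98, percentile 81.5). At 4682 to 4859 bp from the Olfm5 start it was 727 bp in KO (195.19, percentile 87.4), 570 bp in KI (433.51, percentile 97.1) and 862 bp in WT (202.58, percentile 84.6). In these 3 regions the KI peak held the highest rank of the lists.

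The remaining 3 regions were seen in fewer lists. A peak near Olfr631 was present in KO (335 bp, 67.81, percentile 30.6) and WT (314 bp, 97.03, percentile 51.5) and not in KI. KI alone had a peak 9681 bp from the Olfr649 start (384 bp, 51.16, percentile 2.03) and a peak over the pseudogene Olfr650-ps1, 12144 bp from the Trim6 start (474 bp, 123.71, percentile 63.5). Just outside the window, the next region to the left, 28.8 kb from its edge, had peaks in KO (percentile 39.6) and KI (percentile 60.1) but not in WT, and the next to the right, 47.0 kb away, had a peak in every list.

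Over the 8 regions present in all 3 lists, the KO percentile was above the WT percentile in 4 and the KI percentile above it in 5. The median difference in percentile was 1.37 points for KO minus WT, within a range of -12.5 to 8.55, and 3.12 points for KI minus WT, within a range of -6.84 to 25.1. Of these 8 regions, 5 lay over annotated starts, where the KO percentile was above that of WT in 2 (range -12.5 to 6.26) and the KI percentile above it in 2 (range -6.84 to 4.39). The other 3, at Olfr65, Olfr646 and Olfm5, lay away from starts, and there the KI percentile was above that of WT by 10.2 to 25.1 points. With 1 library per genotype these differences have no error.

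Along chromosome 7, windows of the same length (700 kb) on either side were compared. The window to the left, which holds the beta-globin genes, had 6 regions, 2 of them in KO and KI alone, and the one to the right had 1 region, present in all 3 lists. Among the 5 windows on each side, regions in KO and KI alone numbered between 0 and 7. Laid end to end over the genome, 3215 windows of this length held a region, and 178 of them (5.54%) had at least 4 in KO and KI alone. This share depends on where the windows begin, and the cluster was selected for such peaks.

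**Figure D5:**
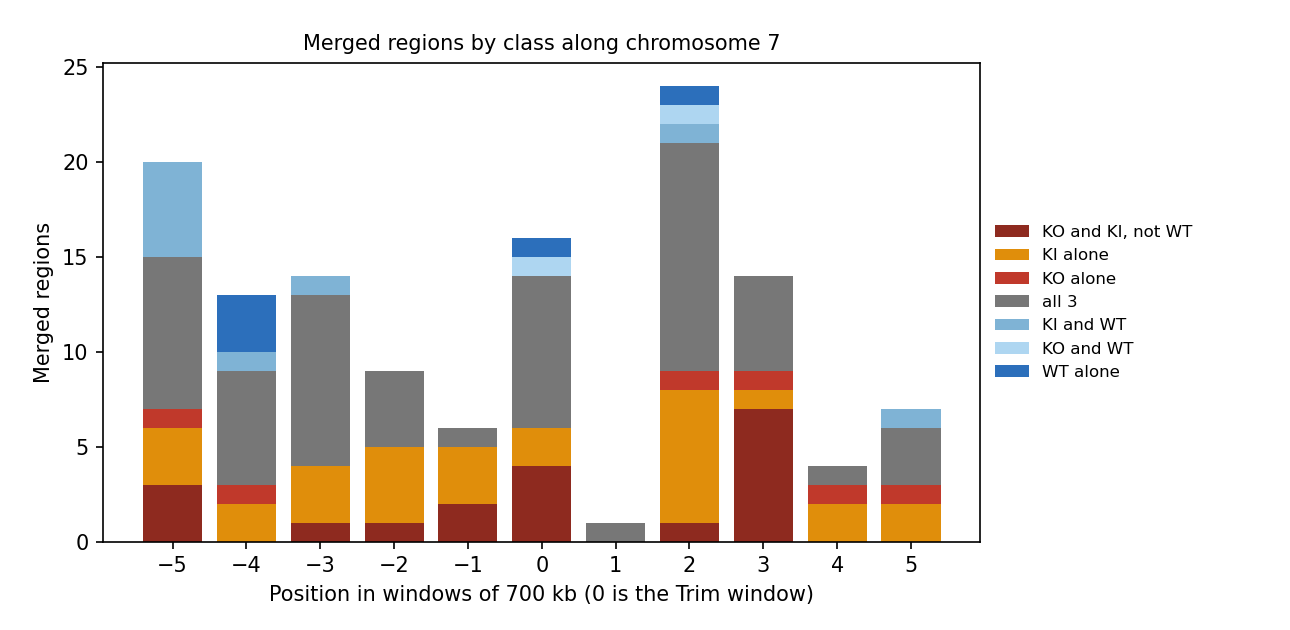
Merged regions by class in the Trim window (position 0) and the 5 windows of 700 kb on each side along chromosome 7. The Trim window has 4 of 16 regions in KO and KI alone, and the window at position 3 has 7 of 14.

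Among 60 other TRIM and related genes, a list that includes Trim6 and Trim30c, 30 had a gene-end peak in KO. In KI 33 had one, in WT 30, and 26 had one in all 3 lists. Over all protein-coding genes the shares were 44.1% in KO, 51.4% in KI, 44.2% in WT and 39.2% in all 3. Each mutant had 4 genes with a peak that WT lacked (6.67%, against 4.58% of all genes for KO and 8.66% for KI), and these were the same genes, Trim6, Trim10, Mefv and Trim46. Mefv encodes pyrin, an inflammasome sensor. Its peak scored 64.58 in KO (percentile 26.1) and 106.51 in KI (percentile 56.7). Trim10, which takes part in terminal erythroid differentiation, scored 52.14 in KO (percentile 4.03) and 87.7 in KI (percentile 46.4), and Trim46 62.98 in KO (percentile 23.5) and 51.56 in KI (percentile 2.78). In the opposite direction KO lacked a WT peak at Trim30c, Trim14, Trim58 and Trim62, 4 of 60, against 4.65% of all genes. KI lacked 1, at Trim30c, against 1.45% of all genes. The WT peaks at Trim14, Trim58 and Trim62 scored 59.8, 52.32 and 52.32, close to the lowest value of the list. Outside the cluster, the TRIM genes that differed thus did so with peaks of low to middling rank.

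Differences between mouse strains in this cluster, differences in mapping between near-identical copies, Cre and the Mtor alleles would each need reads, genotypes or further libraries, and their part in the peaks that WT lacked was not tested. The values that bear on repeated sequence are the 36-base shares given above.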

How the data were processed

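The KO, KI and WT libraries were each deposited as a headerless list of peaks, whose names in the files are those MACS writes. The labels' protocols give 50000 sorted cells per transposition, for 30 min at 37 °C. The score in the fifth column was used as the authors deposited it and only within its own list, since its scale is not stated. The mm10 build and CASAVA are named per the submitters' processing notes. Neither the labels nor the files give the aligner, MACS version, read length, duplicate handling, transposase shift, control or filters.

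Starts were written 1-based. Peaks sharing at least 1 bp were merged across lists (Python 3.11.15, pandas 2.3.3), with overlap calls tested on simulated lists. Gene ends, starts and promoters came from RefSeq GRCm38.p6. Promoters were compared by local alignment (Biopython 1.88) and aligned with MAFFT 7.526. Exact 95% intervals (scipy 1.17.1) cover counting error only. All 8 members were named, with every gene nearest to a peak in the window, and of the other TRIM genes those that differed from WT, by score. Members, lists and motifs were chosen with earlier results of these data known. There were no replicates and no tests between genotypes. Alternatives covered the overlap rule, the score minimum, equal list size, gene-end distance and window limits.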

Additional observations from a re-analysis of the deposited data

How the results depend on the processing

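Of 65 values recomputed under alternatives for 22 results, 54 stayed within 1.5 times the reported count. The 4 regions that both mutants had and WT lacked, at the Trim6, Trim5, Trim12a and Trim30d starts, kept that class with a reciprocal overlap of at least 50%, with peaks within 500 bp counted as shared, with a score of at least 100 and at equal list size (17316 peaks). None of these settings could give WT a peak there, since the nearest WT peaks lay at least 25318 bp from these starts. They could only remove or separate the mutant peaks, so they do not test the absence in WT. With a reciprocal overlap of at least 50%, 2 KO peaks in the window lacked a KI partner instead of 1. With a score of at least 100, the WT region alone beside Trim30c was lost (0 regions), and KO peaks without a KI partner, WT peaks without a KO partner and WT peaks without a KI partner all fell to 0, since fewer peaks enter. At equal list size 1 KI peak instead of 2 lacked a KO partner. Restricting the window to the member genes with 10 kb on each side left 8 KO, 8 KI and 6 WT peaks. With gene ends within 500 bp, KI had 7 other TRIM genes with a peak that WT lacked instead of 4, and lacked 2 WT peaks instead of 1. The start-based counts and the 50-base runs were chosen after seeing the data. With runs of 50 bases the shares of starts with a shared run were 3.35% for KO and KI alone and 2.38% for all 3 lists. No paired analysis was possible because each genotype has 1 ATAC-seq library, and no replicate could be left out. Read depth, which sets how many weak peaks a list holds, is unknown.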

Other observations

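The window at position 3 on chromosome 7 (106000001 to 106700000) had 13 KO, 14 KI and 5 WT peaks, and 7 of its 14 regions were in KO and KI alone. Their percentiles ran from 1.15 to 53.2 in KO and from 28.9 to 68.0 in KI, so none was in the top 25% of its list, unlike the peaks at Trim12a. This window was singled out after its values were seen, and no explanation was tested.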
